A study of Mus musculus with 2 samples.

Results

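The cells described here are the cycling cells of 2 mouse melanoma lines, divided into those that lean to G2/M and those that lean to S phase. A cell entered when the deposited cell annotation classed it as Cycling, and it was called G2/M-leaning when its deposited G2/M score was above its S score and S-leaning in the opposite case. This gave 2641 cells of 4156 in all, and 0 cells had equal scores. B16F0, labelled as the parental line, contributed 631 G2/M-leaning and 780 S-leaning cells, with 1171 cells classed as non-cycling. B16F10, labelled as a highly metastatic subclone, contributed 578 and 652 cells, with 344 non-cycling cells. Both are cultured lines with no treatment named in the labels, and messenger RNA was counted by unique molecular identifiers (UMIs) in a droplet assay that reads the 3' end of transcripts. Each line was 1 library and a cell is not a replicate, so values are compared by size with no p-values, and every interval covers counting error only. Raw UMI counts were summed over the cells of a class and scaled to the same total in each class (CPM), and the phase ratio of a gene is the log2 ratio of its CPM in G2/M-leaning over S-leaning cells of the same line.

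A dividing cell makes many proteins only in the phase that needs them. Around the entry into S phase, E2F transcription factors switch on genes for the loading of replication origins, the replication fork and the supply of nucleotides. Later, the MuvB complex with B-Myb and FOXM1 switches on genes for mitotic entry, the spindle and cytokinesis, many of which carry the cell cycle genes homology region (CHR) in their promoters. Melanoma cells in culture divide asynchronously, so all phases are present at once and single-cell counts can separate them.

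The 4 classes were similar in depth. Median UMIs per cell were 37426 in G2/M-leaning and 37282 in S-leaning cells of B16F0, and 37547 and 35073 in those of B16F10. Cells with both scores above 0 were the deepest, at medians of 40323 and 40557 UMIs on the G2/M and S side in B16F0 and 38978 and 37394 in B16F10. Alternatives with cells thinned to an equal depth, with equal weight per cell and without the deepest cells were run for the counts below. The scores lay within 0.1 of each other in 195 cycling cells of B16F0 (13.8%) and 214 of B16F10 (17.4%). The Cycling class held every cell with an S or a G2/M score above 0 and no other, and the cycling cells of the 2 lines shared 5 barcode sequences. In a deposited clustering column with clusters named F0 and F10, 6.02% of G2/M-leaning and 8.59% of S-leaning cells of B16F0 lay in the cluster named F10, and 2.77% and 0.920% of those of B16F10 in the cluster named F0. Cells were kept under the line their annotation gives. Values without these cells are given for the counts of genes called in both lines and for the line differences of Cdkn3, Knstrn, Ccne1 and Ccnd1.

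The labels of both classes were read against the genes behind such scores. Which genes the authors scored was not stated. Symbols of the S and G2/M lists distributed with Seurat, the program their notes name, were therefore set aside as scoring genes (46 S and 54 G2/M symbols in the counts), and their values only describe the split. If the authors scored other genes, some of the genes treated below as outside the scoring genes may have entered the scores, and their ratios would then follow from the split. Ccnb2, a mitotic B-type cyclin and scoring gene, stood at 204 CPM in the G2/M-leaning and 42.0 CPM in the S-leaning cells of B16F0, and at 147 and 92.4 CPM in those of B16F10. Pcna, the replication clamp and an S scoring gene, stood at 96.8 CPM in the G2/M-leaning and 155 CPM in the S-leaning cells of B16F0, and at 100.2 and 153 CPM in those of B16F10. Each marker was higher in the class it marks in both lines. Summed over the S scoring genes, S-leaning cells reached 3869 CPM (B16F0) and 4113 CPM (B16F10) against 2279 and 2456 CPM in G2/M-leaning cells, and no S scoring gene with at least 10 CPM had a ratio above 0 in either line. The G2/M scoring genes summed to 8569 and 8439 CPM in G2/M-leaning cells against 3673 and 4451 CPM in S-leaning cells. Of those with at least 10 CPM, 1 had a ratio below 0 in each line.

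Both classes were melanoma cells by their markers. Mlana, Pmel, Tyrp1 and Dct, genes of melanosomes and pigment synthesis, were present in every class, with Mlana at 2528 CPM in the G2/M-leaning and 2698 CPM in the S-leaning cells of B16F0, and at 1577 and 1676 CPM in those of B16F10. Of 10 T and NK cell markers, 0 are among the counted genes. The measured fibroblast markers (6 of 10) summed to between 6.28 and 10.5 CPM per class, the macrophage markers (2 of 10) to between 3.32 and 6.25 CPM, and the keratinocyte markers (3 of 10) to at most 0.618 CPM. The endothelial markers (3 of 10) summed to between 56.6 and 72.7 CPM, nearly all of it Egfl7, a secreted factor that stood at 56.1 CPM in the G2/M-leaning and 72.1 CPM in the S-leaning cells of B16F0, and at 57.9 and 67.5 CPM in those of B16F10. The other markers of these lists are not among the counted genes, and the part of other cells in the results was not tested beyond these levels.

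Outside the scoring genes, named regulators of mitosis and the spindle were among the genes higher in G2/M-leaning cells, and named replication and G1/S genes among those higher in S-leaning cells. In B16F0, 106 genes (2.12% of 5007 with at least 20 CPM in the higher class) were at least 1.5-fold higher in G2/M-leaning cells and 105 (2.1%) at least 1.5-fold higher in S-leaning cells. In B16F10 the numbers were 88 (1.67% of 5256) and 58 (1.1%). Of 4773 genes measured at that level in both lines, 66 (1.38%) were higher in G2/M-leaning cells of both and 46 (0.964%) higher in S-leaning cells of both. At 2-fold the directions were less even, with 50 G2/M-high and 16 S-high genes in B16F0 and 46 and 10 in B16F10. The median ratio over all these genes was -0.02 in each line.

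Across the 4773 genes the phase ratios of the lines had a Pearson r of 0.840 and a Spearman rho of 0.699, as a description over genes, which are not independent and share their library. The sign was the same for 75.4% of them. Of 95 genes that were G2/M-high in B16F0 and measured in both lines, 66 (69.5%) were also past 1.5-fold in B16F10, and all 95 had the same sign there. From the other side, 66 of the 77 G2/M-high genes of B16F10 (85.7%) were past 1.5-fold in B16F0. Among S-high genes, 46 of 95 from B16F0 (48.4%) passed in B16F10, where 93 had the same sign, and 46 of 51 from B16F10 (90.2%) passed in B16F0. The 2 genes with the opposite sign were Stox2 and Bin3, and 0 genes passed 1.5-fold in opposite directions. Without the cells in the cluster named for the other line, a choice made after the data were seen, 67 genes were G2/M-high and 43 S-high in both lines, with 65 and 42 of them shared with the sets above. Among genes called in both lines the median size of the log2 ratio was 1.21 in B16F0 and 1.27 in B16F10 for the G2/M-high genes, and 0.80 and 0.76 for the S-high genes.

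**Figure D1:**
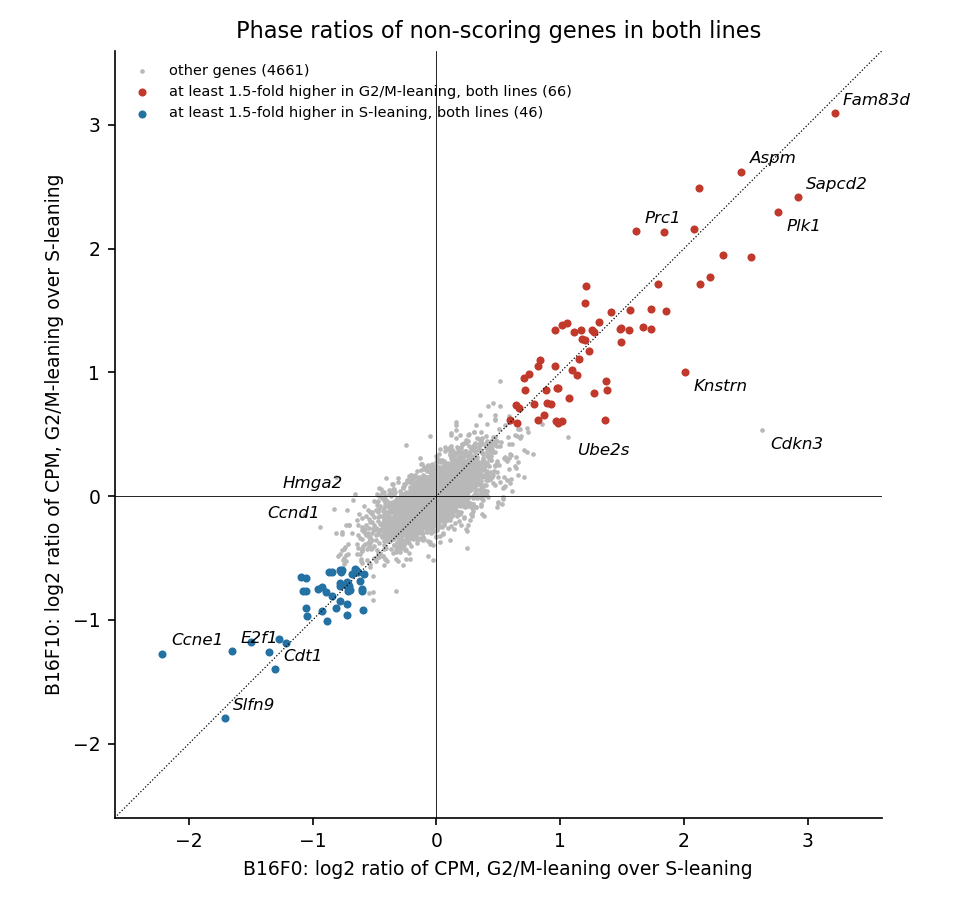
Log2 ratio of CPM in G2/M-leaning over S-leaning cells, B16F0 on the horizontal and B16F10 on the vertical axis, for 4773 genes outside the scoring lists that reach 20 CPM in both lines. Points in red (66 genes) and blue (46 genes) are past 1.5-fold the same way in both lines. Most lie near the dotted line of equal ratios, Cdkn3 and Knstrn lie below it on the G2/M side, and Ccne1 lies above it on the S side.

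The rule of 1.5-fold has no gap at its edge. Tmem230 was just inside on the G2/M side, at log2 ratios of 0.65 and 0.59 in B16F0 and B16F10, and Pcf11 just outside, at 0.86 and 0.58. On the S side, Irx5 was just inside at -0.59 and -0.63 and Umps, an enzyme of pyrimidine synthesis, outside at -0.74 and -0.55.

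The kinases and cyclins of mitotic entry were among the most phase-dependent genes. Plk1, the polo-like kinase that drives centrosome maturation and mitotic entry (chr7:122159439-122169873 on GRCm38), stood at 61.1 CPM in the G2/M-leaning and 8.99 CPM in the S-leaning cells of B16F0, and at 69.1 and 14.1 CPM in those of B16F10. Its log2 ratios of 2.76 (95% counting interval 2.57 to 2.96) and 2.30 (2.12 to 2.47) were on the G2/M side in both lines. With every cell thinned to 19224 UMIs, Plk1 was seen in 58.6% of G2/M-leaning, 16.2% of S-leaning and 4.75% of non-cycling cells of B16F0, and in 69.6%, 20.1% and 4.70% of those of B16F10. The non-cycling cells, with median depths of 33745 and 30188.5 UMIs, are given beside such shares for comparison. Without thinning, the G2/M-leaning shares were 75.8% and 84.1% and the S-leaning shares 23.3% and 34.4%.

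Ccnb1, the cyclin that activates CDK1 at mitotic entry (chr13:100778650-100786570), stood at 152 CPM in the G2/M-leaning and 30.7 CPM in the S-leaning cells of B16F0, and at 123 and 31.9 CPM in those of B16F10, with log2 ratios of 2.31 (95% counting interval 2.21 to 2.42) and 1.95 (1.83 to 2.06). Cdc25b, a phosphatase that removes the inhibitory phosphates of CDK1, stood at 48.1 CPM in the G2/M-leaning and 11.4 CPM in the S-leaning cells of B16F0, and at 53.7 and 12.0 CPM in those of B16F10, with log2 ratios of 2.08 and 2.16. Ccna2, the cyclin of S phase and G2, had a smaller contrast, at 165 CPM in the G2/M-leaning and 76.8 CPM in the S-leaning cells of B16F0, and at 155 and 76.7 CPM in those of B16F10. G2/M-leaning cells had more of all 3 transcripts in both lines, and the contrast was smallest for Ccna2, whose ratios were 1.10 and 1.02. Foxm1, the transcription factor of G2 and M genes, stood at 62.9 CPM in the G2/M-leaning and 33.0 CPM in the S-leaning cells of B16F0, and at 57.5 and 34.3 CPM in those of B16F10, with log2 ratios of 0.93 and 0.75.

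Mybl2, which encodes B-Myb, the partner of the MuvB complex on G2/M promoters, lay on the other side. It stood at 22.2 CPM in the G2/M-leaning and 39.9 CPM in the S-leaning cells of B16F0, and at 22 and 38.5 CPM in those of B16F10, with log2 ratios of -0.85 and -0.81. The Mybl2 transcript was thus higher in S-leaning cells and that of Foxm1 in G2/M-leaning cells, in both lines. Of the list of mitotic kinases, cyclins and their transcription factors (24 genes, 20 and 22 with at least 10 CPM), 9 were at least 1.5-fold higher in G2/M-leaning cells of B16F0 and 8 in B16F10, with Mybl2 the only member past 1.5-fold on the S side. Over all genes at that level, 2.37% of 7103 in B16F0 and 2% of 7295 in B16F10 were G2/M-high. The same shares apply to the G2/M-high counts of the lists below. The list's median ratio was 0.27 and 0.37.

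Spindle and cytokinesis genes had the highest median ratio of the lists outside the scoring genes. Fam83d, which recruits casein kinase 1 to the spindle (chr2:158768093-158786637), had the largest ratio of all genes called in both lines. It stood at 29.7 CPM in the G2/M-leaning and 3.19 CPM in the S-leaning cells of B16F0, and at 29.4 and 3.45 CPM in those of B16F10, with log2 ratios of 3.22 (95% counting interval 2.91 to 3.55) and 3.09 (2.76 to 3.45). In thinned cells it was seen in 33.3% of G2/M-leaning, 5.13% of S-leaning and 0.652% of non-cycling cells of B16F0, and in 36%, 6.81% and 1.25% in B16F10. Its transcript was therefore captured in a minority even of G2/M-leaning cells at this depth.

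Aspm, a spindle pole protein, stood at 30.9 CPM in the G2/M-leaning and 5.60 CPM in the S-leaning cells of B16F0, and at 39.3 and 6.38 CPM in those of B16F10. Sapcd2, a regulator of spindle orientation, stood at 32.2 CPM in the G2/M-leaning and 4.26 CPM in the S-leaning cells of B16F0, and at 32.5 and 6.08 CPM in those of B16F10. Their ratios were 2.47 and 2.62 for Aspm and 2.92 and 2.42 for Sapcd2. Prc1, the bundler of antiparallel microtubules in the spindle midzone, stood at 116 CPM in the G2/M-leaning and 37.8 CPM in the S-leaning cells of B16F0, and at 151 and 34.1 CPM in those of B16F10, with log2 ratios of 1.61 and 2.14. Racgap1, part of the centralspindlin complex of cytokinesis, had log2 ratios of 1.49 and 1.25, and Nde1, a dynein regulator, log2 ratios of 1.23 and 1.18. Of the 41 spindle, kinesin and cytokinesis genes outside the scoring lists, 31 in B16F0 and 33 in B16F10 had at least 10 CPM, 21 and 23 of these were G2/M-high, and 0 were S-high in either line. The list's medians were 1.21 and 1.25.

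Kinetochore genes followed with a smaller contrast. Knl1, the scaffold on which checkpoint proteins assemble, stood at 29.9 CPM in the G2/M-leaning and 13.0 CPM in the S-leaning cells of B16F0, and at 36.1 and 12.2 CPM in those of B16F10. Bub1b, the checkpoint kinase homologue BubR1, had log2 ratios of 1.27 and 1.33, and Spc25, a subunit of the NDC80 complex, log2 ratios of 1.01 and 1.39. Of 32 kinetochore and checkpoint genes with at least 10 CPM, 16 were G2/M-high in B16F0 and 12 in B16F10, 0 were S-high, and the medians were 0.58 and 0.45. Sgo1, the protector of centromeric cohesion, was also G2/M-high in both lines, at log2 ratios of 0.82 and 1.05.

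Several G2/M-high genes belong to other groups. Arl6ip1, a membrane-shaping protein of the endoplasmic reticulum (chr7:118118891-118129662), stood at 444 CPM in the G2/M-leaning and 133 CPM in the S-leaning cells of B16F0, and at 512 and 179 CPM in those of B16F10, with log2 ratios of 1.73 (95% counting interval 1.68 to 1.79) and 1.51 (1.46 to 1.56). Reep4, which clears endoplasmic reticulum from mitotic chromosomes, had log2 ratios of 1.79 and 1.71. Cdkn2d, which encodes the CDK4 and CDK6 inhibitor p19, stood at 139 CPM in the G2/M-leaning and 49.8 CPM in the S-leaning cells of B16F0, and at 138 and 54.4 CPM in those of B16F10, and the related inhibitor gene Cdkn2c had log2 ratios of 0.88 and 0.86. Fzr1, the CDH1 activator of the anaphase-promoting complex, had log2 ratios of 1.49 and 1.36, and Rad21, the kleisin subunit of cohesin, log2 ratios of 0.97 and 0.87. Both CDK4 and CDK6 inhibitor transcripts were thus higher on the G2/M side, while the G1/S list to which they belong mostly leaned the other way.

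Dbf4, the activating subunit of the CDC7 kinase that fires replication origins, differed from the other origin genes. It stood at 157 CPM in the G2/M-leaning and 80.8 CPM in the S-leaning cells of B16F0, and at 145 and 69.7 CPM in those of B16F10, with log2 ratios of 0.96 (95% counting interval 0.88 to 1.03) and 1.05 (0.97 to 1.14), and was the 1 member of the origin list past 1.5-fold on the G2/M side, in both lines. Tuba1c, an alpha tubulin, had log2 ratios of 1.67 and 1.37, the histone variant gene H2afx log2 ratios of 1.38 and 0.85, and Ubald2 log2 ratios of 1.15 and 1.11. Reads of Tuba1c, Ccnb1, H2afz and Stmn1 could be split with close copies in the mouse genome, and how the counting treated such reads was not stated.

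The other 40 of the 66 G2/M-high genes fell outside the naming rule. Among them are Arhgap11a, Arhgap19, Bora, C330027C09Rik, Ccdc77, Cdkn2c, Cep55, Cit, Depdc1a, Dzip3, Gpsm2, Hmx2, Hp1bp3, Kif20a, Kif22, Kif4, Kpna2, Lockd, Miip, Mtmr14, Mxd3, Odf2, Pbk, Pnrc2, Prr11, Rnf26, Sgo1, Sgo2a, Ska1, Ska2, Spag5, Terf1, Tmem218, Tmem230, Tob1, Trim59, Triobp, Troap and Zbed3. Of these, Prr11 stood at 25.3 CPM in the G2/M-leaning and 5.80 CPM in the S-leaning cells of B16F0, and at 42.0 and 7.49 CPM in those of B16F10. The kinesin genes Kif20a and Kif4 had log2 ratios of 2.13 and 1.72 and of 1.21 and 1.70. Lockd, a long noncoding RNA gene next to Cdkn1b, stood at 512 CPM in the G2/M-leaning and 243 CPM in the S-leaning cells of B16F0, and at 199.9 and 115 CPM in those of B16F10, and Hmx2, a homeobox gene, had log2 ratios of 1.56 and 1.35. These genes were named after their values were seen.

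Genes of the G1/S switch were among the most S-high. Ccne1, the cyclin that activates CDK2 at S phase entry (chr7:38097984-38107534), stood at 19.6 CPM in the G2/M-leaning and 91.0 CPM in the S-leaning cells of B16F0, and at 37.2 and 89.8 CPM in those of B16F10, with log2 ratios of -2.21 (95% counting interval -2.36 to -2.07) and -1.27 (-1.39 to -1.16). In thinned cells it was seen in 77.6% of S-leaning, 26.2% of G2/M-leaning and 34.8% of non-cycling cells of B16F0, and in 73.7%, 42.8% and 39.8% of those of B16F10. The G2/M-leaning cells of B16F0 thus had Ccne1 less often than the non-cycling cells did, so the non-cycling share is no floor of detection for this gene. Its level in S-leaning cells was alike in both lines, and the lines differed in the level left in G2/M-leaning cells. E2f1, the activator of G1/S genes (chr2:154559407-154569892), stood at 40.2 CPM in the G2/M-leaning and 127 CPM in the S-leaning cells of B16F0, and at 55.2 and 131 CPM in those of B16F10, with log2 ratios of -1.65 (95% counting interval -1.76 to -1.55) and -1.25 (-1.35 to -1.16). Cdc25a, the phosphatase that activates CDK2, had log2 ratios of -0.76 and -0.60, and Fbxo5, the EMI1 inhibitor of the anaphase-promoting complex, log2 ratios of -0.62 and -0.69. Of the G1/S regulators with at least 10 CPM, 11 of 24 were S-high in B16F0 and 5 of 23 in B16F10, and 3 were G2/M-high in each line. The share of all genes at that level that was S-high was 2.39% in B16F0 and 1.34% in B16F10. The same shares apply to the S-high counts of the lists below.

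Several origin licensing genes were S-high in both lines. Cdt1, which loads the MCM helicase and is degraded once S phase begins (chr8:122568015-122573554), stood at 40.7 CPM in the G2/M-leaning and 100.5 CPM in the S-leaning cells of B16F0, and at 35.0 and 92.3 CPM in those of B16F10, with log2 ratios of -1.31 (95% counting interval -1.41 to -1.20) and -1.40 (-1.52 to -1.28). Thinned cells showed Cdt1 in 83.8% of S-leaning, 48.9% of G2/M-leaning and 24.1% of non-cycling cells in B16F0, and in 82.9%, 43.3% and 19.4% in B16F10. Orc6, a subunit of the origin recognition complex, stood at 63.4 CPM in the G2/M-leaning and 131 CPM in the S-leaning cells of B16F0, and at 48.2 and 94.2 CPM in those of B16F10. Mcm3, a helicase subunit that is not among the scoring genes, stood at 32.4 CPM in the G2/M-leaning and 67.4 CPM in the S-leaning cells of B16F0, and at 51.4 and 96.0 CPM in those of B16F10. Both had ratios near or past 2-fold toward S, at -1.04 and -0.97 for Orc6 and -1.06 and -0.90 for Mcm3. Topbp1 and Mcm10, which act in helicase activation, had log2 ratios of -0.78 and -0.73 and of -0.93 and -0.74. Of 16 origin genes with at least 10 CPM, 7 were S-high in B16F0 and 6 in B16F10, and all others but Dbf4 lay within 1.5-fold.

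Fork and nucleotide genes also had S-high members. Dna2, a nuclease that trims Okazaki fragments, stood at 7.39 CPM in the G2/M-leaning and 20.9 CPM in the S-leaning cells of B16F0, and at 9.92 and 22.4 CPM in those of B16F10, with log2 ratios of -1.50 and -1.18. Rfc3, a subunit of the clamp loader, had log2 ratios of -0.78 and -0.84, and Pclaf, a PCNA-binding protein, log2 ratios of -0.87 and -0.61. Of 25 fork genes, 10 were S-high in B16F0 and 8 in B16F10, and 0 were G2/M-high. Lig1, the ligase that seals Okazaki fragments, was past 1.5-fold in B16F0 alone, at log2 ratios of -0.78 and -0.47, and its difference between the lines was 0.31 (0.19 to 0.42).

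Tk1, the thymidine salvage kinase, differed little between the classes, at 121 CPM in the G2/M-leaning and 141 CPM in the S-leaning cells of B16F0, and at 125 and 139.8 CPM in those of B16F10. Its ratios were -0.22 and -0.17, and its level was highest in cells with both scores above 0 and S the higher, with 199.7 CPM for B16F0 and 162 CPM for B16F10. Of the nucleotide supply genes, 6 of 21 were S-high in B16F0 and 2 of 22 in B16F10, against 2.39% and 1.34% of all genes with at least 10 CPM.

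Chromatin assembly genes had members on both sides, with 4 of 23 G2/M-high and 1 S-high in B16F0 and 1 and 1 in B16F10. Over all genes with at least 10 CPM, 2.37% were G2/M-high and 2.39% S-high in B16F0, and 2% and 1.34% in B16F10. H2afx, given above, was G2/M-high in both lines, and the histone variant gene H2afv had log2 ratios of 0.73 and 0.55. Chaf1a, the large subunit of the histone chaperone CAF-1, had log2 ratios of -0.73 and -0.87, while the median of the 23 chromatin genes was 0.01 in B16F0 and -0.04 in B16F10. Mms22l, which acts at stalled forks, had log2 ratios of -0.72 and -0.71, Brca1 log2 ratios of -1.05 and -0.66, and Chek1, the kinase of the replication checkpoint, log2 ratios of -0.59 and -0.92. Of 17 repair genes with at least 10 CPM, 6 were S-high in B16F0 and 7 in B16F10. Zmynd19, a zinc finger protein gene, stood at 34.6 CPM in the G2/M-leaning and 80.3 CPM in the S-leaning cells of B16F0, and at 39.8 and 90.6 CPM in those of B16F10, with log2 ratios of -1.21 (95% counting interval -1.33 to -1.10) and -1.19 (-1.30 to -1.07). Gpr180 had log2 ratios of -0.89 and -0.78, Tcf19 log2 ratios of -0.92 and -0.93, and Chac1, an ATF4 target that degrades glutathione, log2 ratios of -0.77 and -0.62.

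Of the 46 S-high genes, 25 fell outside the naming rule: Atad5, Aunip, Cd3eap, Cdc25a, Chd3os, Fbxo5, Hist1h1e, Irx5, Mcm10, Mllt11, Nolc1, Nppb, Paqr6, Paxip1, Pold1, Rnf168, Rpain, Sdc1, Slc20a1, Slf1, Slfn9, Tlcd1, Trmt2a, Tssc4 and Zfp367. Slfn9, of the Schlafen family, had the lowest ratios of these, at 7.60 CPM in the G2/M-leaning and 24.9 CPM in the S-leaning cells of B16F0, and at 5.98 and 20.8 CPM in those of B16F10, with log2 ratios of -1.71 and -1.80. Atad5, which unloads PCNA, had log2 ratios of -1.35 and -1.26, and Zfp367 log2 ratios of -1.27 and -1.15. Hist1h1e, a linker histone gene whose main transcript in dividing cells ends in a stem-loop and not in a poly(A) tail, had log2 ratios of -0.65 and -0.60. These too were named after their values were seen.

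The order within each class was read from a finer division that used the sign of the scores. Cells with only the S score above 0 numbered 523 in B16F0 and 370 in B16F10, and cells with only the G2/M score above 0 numbered 372 and 267. Between them lay cells with both scores above 0, of which 257 and 282 had the higher S score and 259 and 311 the higher G2/M score. Of the 66 G2/M-high genes, 47 in B16F0 and 50 in B16F10 had their highest CPM in the G2/M-only cells (42 the same in both lines), and the others in the cells with both scores and G2/M higher. Of the 46 S-high genes, 26 and 27 were highest in the S-only cells (20 the same) and the others in the cells with both scores and S higher. The genes were called on these same cells, so a highest level on the called side follows largely from the call. Only the place within that side is described here. In non-cycling cells the level was below all 4 cycling classes for 55 and 58 of the 66 genes and for 30 and 33 of the 46. The same share over all tested genes was not computed. The non-cycling class also follows from the 2 scores, so these counts are a description and set no called gene apart from other genes.

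Named genes differed in the class in which they were highest. Arl6ip1 went from 112 CPM in S-only cells to 172, 377 and 496 CPM in G2/M-only cells of B16F0, and from 146 to 219.6, 458 and 579 CPM in B16F10. Spc25 was highest in the middle, at 39.5, 96.1, 142 and 103 CPM in B16F0 and 35.6, 69.8, 143 and 122 CPM in B16F10. Cdkn2d had the same shape, with 154 and 143 CPM in cells with both scores and G2/M higher against 127 and 133 CPM in G2/M-only cells. On the S side, Pclaf was highest in cells with both scores and S higher, at 838 and 761 CPM, and Zmynd19 in S-only cells, at 89.7 and 98.2 CPM. The cells with both scores above 0 also had the highest median UMIs, and the part of that depth in the order was not tested.

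Cdkn1a, the p53 target that encodes the CDK inhibitor p21, was below 1.5-fold in both lines but had the same position. It stood at 337 CPM in S-only cells, 594 CPM in cells with both scores and S higher, 386 CPM in those with G2/M higher and 242 CPM in G2/M-only cells of B16F0. In B16F10 the values were 166, 202, 132 and 119.8 CPM. Non-cycling cells had 283 and 286 CPM, which was above every cycling class in B16F10 and below the S-only cells in B16F0.

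**Figure D2:**
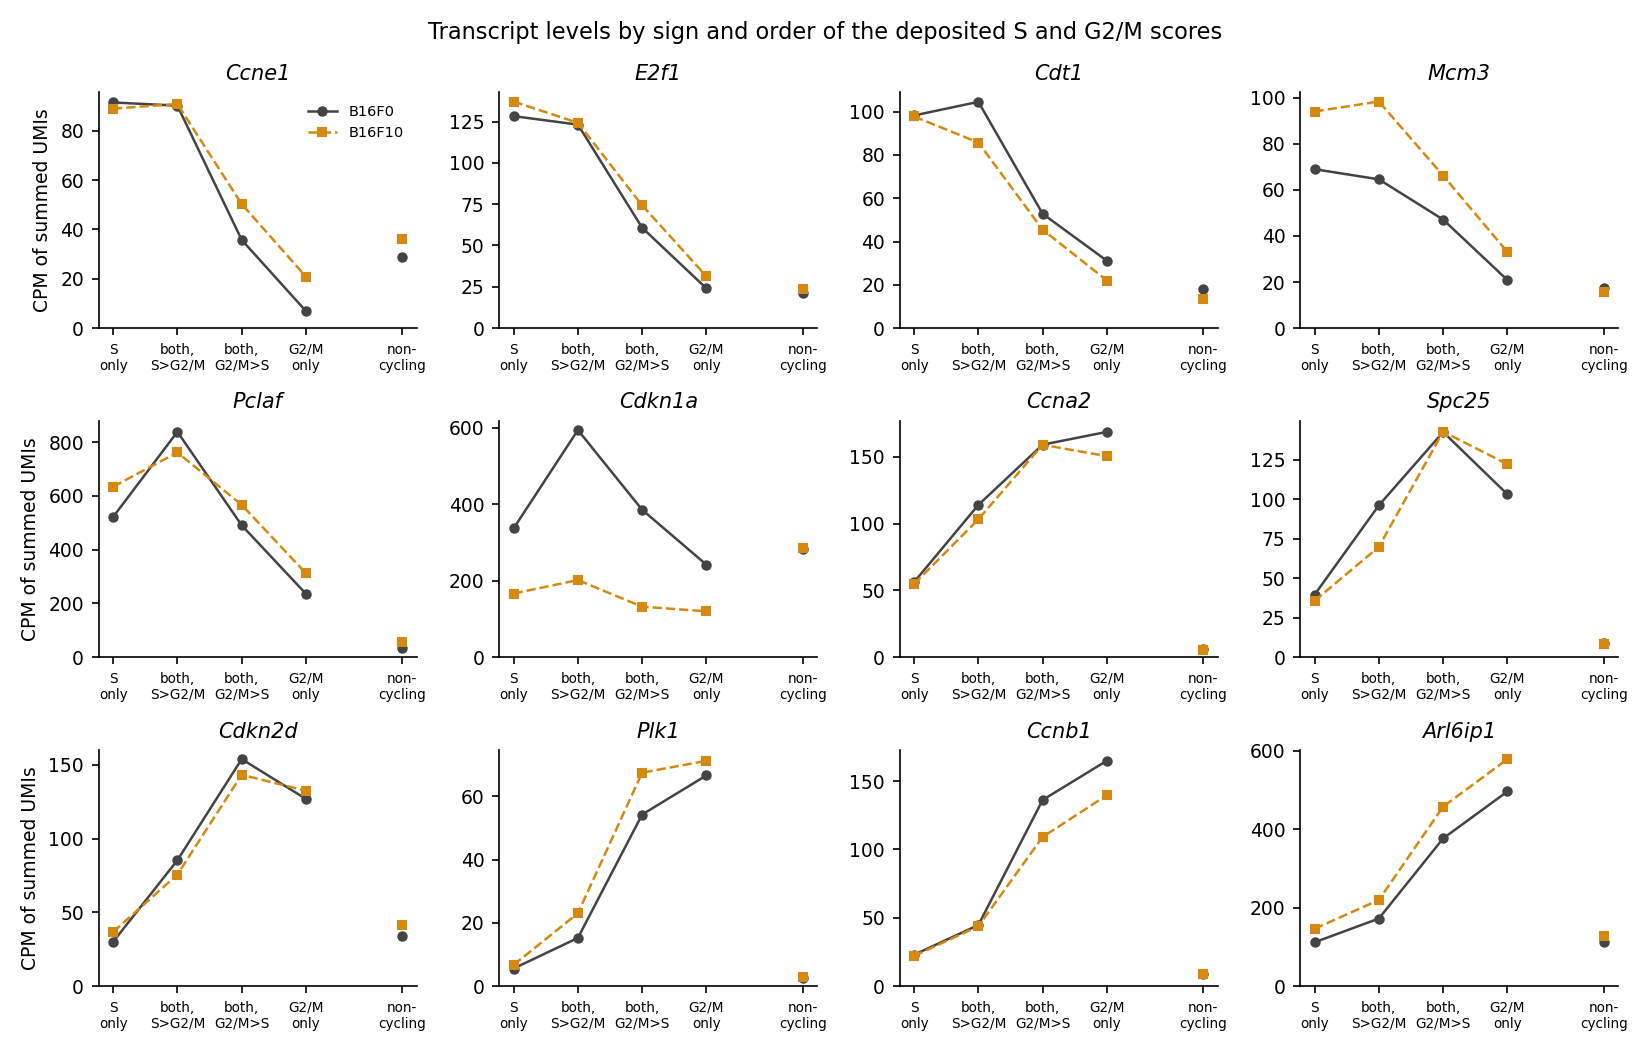
CPM of summed UMIs (vertical axes, from 0) for 12 genes in cells with only the S score above 0, with both scores above 0 and S or G2/M the higher, with only the G2/M score above 0, and in non-cycling cells. Circles and full lines are B16F0 and squares and broken lines B16F10, 1 library each. Ccne1, E2f1, Cdt1 and Mcm3 are high on the S side, Plk1, Ccnb1 and Arl6ip1 are highest in G2/M-only cells, and Spc25 and Cdkn2d are highest in cells with both scores and G2/M higher.

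Lists outside the cell cycle differed little between the classes. No member with at least 10 CPM of the pigment, glycolysis, oxidative phosphorylation, heat shock, cholesterol synthesis or p53 target lists was past 1.5-fold in either line. Pmel, which forms the fibrils of melanosomes, stood at 1049 CPM in the G2/M-leaning and 1198 CPM in the S-leaning cells of B16F0, and at 666 and 802 CPM in those of B16F10, with log2 ratios of -0.19 and -0.27. Mitf, the transcription factor at the head of the melanocyte program, stood at 85.3 CPM in the G2/M-leaning and 79.1 CPM in the S-leaning cells of B16F0, and at 150.3 and 159 CPM in those of B16F10. Its ratios of 0.11 and -0.08 had opposite signs and were small in both lines, and with only cells that had a single score above 0 both were below 0, at -0.02 and -0.30. Sox10, the neural crest factor upstream of Mitf, leaned to G2/M at 0.37 and 0.17, and Pmel and Mlana leaned to S, all within 1.5-fold. The median ratio of the 19 pigment genes was -0.19 and -0.08, of the 33 nuclear oxidative phosphorylation genes 0.00 and -0.04, and of the tubulins with stathmin 0.41 and 0.09. Condensin, cohesin and lamina genes had medians of 0.19 and 0.09, and genes of the anaphase-promoting complex of 0.15 in both lines. These lists and the tubulins belong to the cell cycle and had G2/M-high members. With at least 10 CPM, 3 of 24 condensin, cohesin and lamina genes were G2/M-high in B16F0 and 5 of 24 in B16F10. For the anaphase-promoting complex it was 2 of 18 in each line, and for the tubulins 2 of 9 and 1 of 9. Over all genes at that level it was 2.37% and 2%. S-high members numbered 1 and 0, 1 and 1, and 0 and 0 for the lists in this order.

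A few other lists had members past the threshold. Of 15 ATF4 and unfolded protein response genes with at least 10 CPM, 1 was S-high in B16F0 and 2 in B16F10, with list medians of -0.02 and -0.09. The S-high share of all genes at that level was 2.39% and 1.34%. Of the interferon genes with at least 10 CPM, 3 of 9 were G2/M-high in B16F0 and 1 of 6 in B16F10, against 2.37% and 2% of all genes at that level. The medians of this list were nevertheless below 0, at -0.13 and -0.05, and 5 of 9 and 3 of 6 members had ratios below 0. Ifit1, an interferon-induced gene, stood at 22.9 CPM in the G2/M-leaning and 11.3 CPM in the S-leaning cells of B16F0, and at 15.7 and 1.15 CPM in those of B16F10, but it was seen in only 4.40% and 3.28% of thinned G2/M-leaning and S-leaning cells of B16F0 and 1.61% and 0.792% of those of B16F10, so its ratio rests on few cells. It was named after its values were seen. Of the immediate early genes, 3 of 9 were S-high in B16F0 and 0 of 10 in B16F10, against 2.39% and 1.34% of all genes at that level. Among them Dusp4, a MAP kinase phosphatase, had log2 ratios of -0.75 and -0.43.

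**Figure D3:**
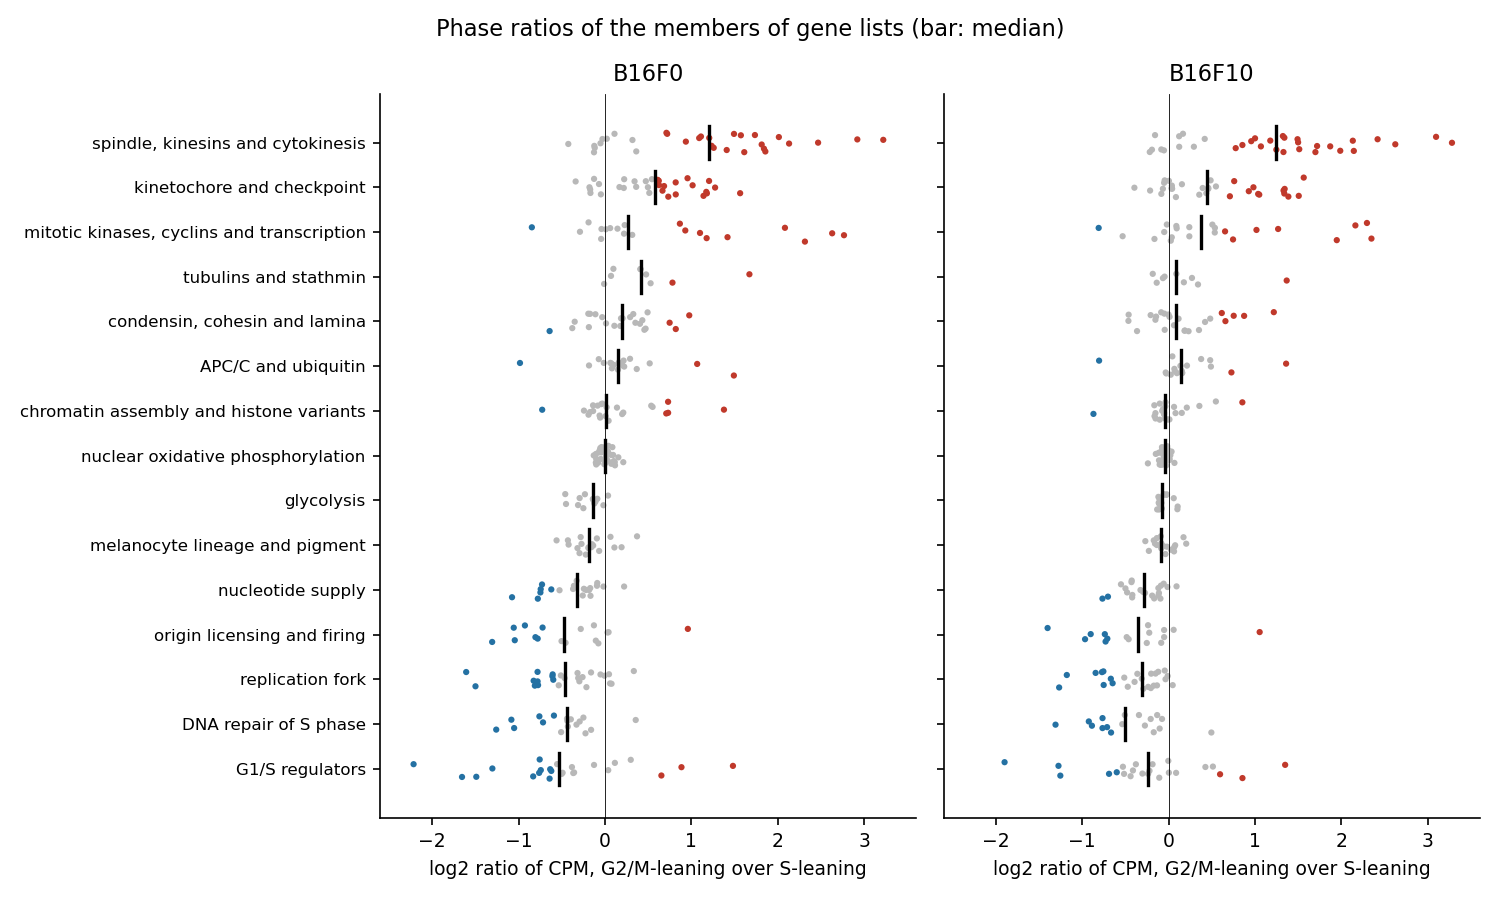
Log2 ratio of CPM, G2/M-leaning over S-leaning, for the members of 15 gene lists with at least 10 CPM in the higher class, B16F0 left and B16F10 right. Each point is a gene, red or blue where it is past 1.5-fold toward G2/M or S, and the black bar is the list's median. Spindle genes have medians of 1.21 and 1.25, while the medians of the origin, fork, repair and G1/S lists lie below 0 in both lines.

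The largest differences between the lines were in G2/M genes whose S-leaning level was higher in B16F10. The S-leaning cells of B16F10 also had the higher median G2/M score, at -0.015 against -0.064 in B16F0. Both scores were above 0 in 282 of these 652 cells of B16F10 and in 257 of the 780 of B16F0. The part of this make-up in the differences was not tested. Over all 4773 genes the difference of the ratios (B16F10 minus B16F0) had a standard deviation of 0.16 on the log2 scale, 15 genes differed by more than 1.5-fold and 2 by more than 2-fold. These 2 were Cdkn3 and Knstrn. Cdkn3, a phosphatase that acts on CDKs (chr14:46760541-46771669), stood at 77.2 CPM in the G2/M-leaning and 12.5 CPM in the S-leaning cells of B16F0, and at 54.0 and 37.2 CPM in those of B16F10. Its ratio was 2.63 (2.46 to 2.79) in B16F0 and 0.54 (0.41 to 0.66) in B16F10, a difference of -2.09 (-2.30 to -1.89). G2/M-leaning cells of B16F10 had less Cdkn3 than those of B16F0 and S-leaning cells had more. Without the cells in the cluster named for the other line the difference was -2.20.

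In thinned cells Cdkn3 was seen in 65.0% of G2/M-leaning, 18.1% of S-leaning and 31.5% of non-cycling cells of B16F0, and in 59.0%, 44.1% and 38.6% of those of B16F10. Non-cycling cells of B16F0 thus had more Cdkn3 than the S-leaning cells of that line, at 27.5 CPM, and those of B16F10 had 30.4 CPM. Knstrn, a spindle and kinetochore protein (chr2:118814003-118853957), stood at 194 CPM in the G2/M-leaning and 48.2 CPM in the S-leaning cells of B16F0, and at 178 and 89.0 CPM in those of B16F10, with a difference of -1.01 (-1.13 to -0.90) and of -1.08 without those cells. It was seen in 53.3% of thinned S-leaning cells of B16F0 and 73.4% of those of B16F10.

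Ube2s, the ubiquitin-conjugating enzyme that extends chains for the anaphase-promoting complex, stood at 1929 CPM in the G2/M-leaning and 921 CPM in the S-leaning cells of B16F0, and at 2303 and 1649 CPM in those of B16F10, a difference of -0.58 (-0.61 to -0.56). Both cycling classes of B16F10 had more of it, and the S-leaning cells by the larger factor. Hmgn2, Pmf1, Spc24, Stmn1 and Lmna had differences between -0.54 and -0.59. Stmn1, the microtubule destabiliser stathmin, stood at 448 CPM in the G2/M-leaning and 311 CPM in the S-leaning cells of B16F0, and at 261 and 272 CPM in those of B16F10, and Lmna, the gene of lamins A and C, at 146 CPM in the G2/M-leaning and 104 CPM in the S-leaning cells of B16F0, and at 132 and 139.7 CPM in those of B16F10. The ratios of these 2 genes had opposite signs in the lines, except that Lmna was at 0.04 in B16F10 when only cells with a single score above 0 were kept. The Stmn1 difference was then -0.93.

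Among the scoring genes, given as a description, Cenpa, Ccnb2, Ube2c, Cdc20 and Cdca3 had the largest differences in the same direction. The Ccnb2 ratio was 2.28 in B16F0 and 0.67 in B16F10, and that of Cenpa, the centromeric histone H3 variant, 3.47 and 1.71. As with Cdkn3, non-cycling cells of B16F0 had more of both than its S-leaning cells, at 69.1 CPM of Ccnb2 and 63.0 CPM of Cenpa against 42.0 and 41.3 CPM. In B16F10 the order was the reverse, with 59.9 and 106 CPM in non-cycling against 92.4 and 140.2 CPM in S-leaning cells. Over 93 scoring genes with at least 20 CPM in both lines the ratios of the lines had a Pearson r of 0.961.

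In the other direction, some genes that were S-high in B16F0 had a smaller contrast in B16F10. Among genes with at least 50 CPM in both lines Ccne1 had the largest such difference, at 0.94 (0.76 to 1.12), and at 1.03 without the cells in the cluster named for the other line. With only cells that had a single score above 0 it was 1.64, from Ccne1 ratios of -3.73 in B16F0 and -2.09 in B16F10. Ccnd1, the D-type cyclin of G1, stood at 38.0 CPM in the G2/M-leaning and 67.5 CPM in the S-leaning cells of B16F0, and at 141 and 152 CPM in those of B16F10, a difference of 0.72 (0.59 to 0.86), and of 0.92 without those cells. Hmga2, an architectural chromatin protein, stood at 60.0 CPM in the G2/M-leaning and 95.5 CPM in the S-leaning cells of B16F0, and at 108 and 110.1 CPM in those of B16F10, a difference of 0.64 (0.52 to 0.76). For both genes the G2/M-leaning cells of B16F0 had the lowest level of the 4 classes. Rapgef2, Fkbp11, Ckb and Srm, which are on none of the cell cycle lists, had differences of 0.62, 0.52, 0.50 and 0.47, and that of Srm was 0.25 with only cells that had a single score above 0. Prc1, G2/M-high in both lines, had a larger ratio in B16F10, with a difference of 0.53 (0.38 to 0.68).

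**Figure D4:**
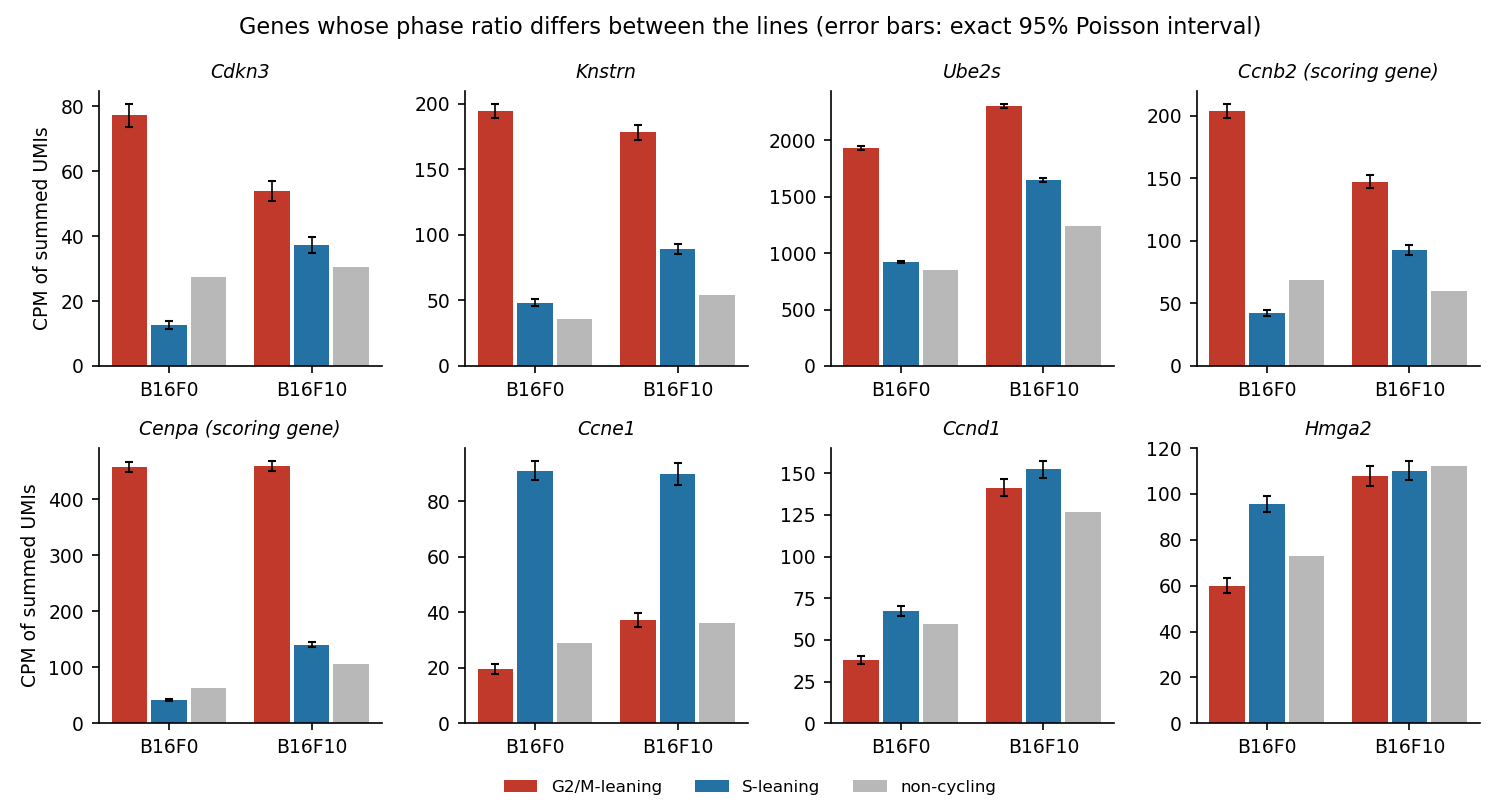
CPM of summed UMIs (vertical axes, from 0) in G2/M-leaning, S-leaning and non-cycling cells of each line for 8 genes, with exact 95% Poisson intervals on the cycling classes, 1 library per line. Cdkn3, Knstrn, Ube2s and the scoring genes Ccnb2 and Cenpa have higher S-leaning bars in B16F10, and Ccne1, Ccnd1 and Hmga2 have higher G2/M-leaning bars there.

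The promoters of both gene sets were searched for 3 short motifs in the window from 250 bases before to 50 bases after each RefSeq start site on GRCm38.p6. The CHR was read as TTTGAA or TTCGAA, the E2F site as TTTCCCGC, TTTCGCGC, TTTGCCGC or TTTGGCGC, and the CCAAT box as CCAAT, each on both strands. A gene with several start sites counted as a match if any of its windows held the motif, and 22.2% of the G2/M-high, 7.14% of the S-high and 19.4% of all tested genes had more than 1. Matches of different motifs shared bases in 1 G2/M-high gene (CHR with CCAAT) and in 0 S-high genes. A match of such short letters describes the window and does not show that a factor binds.

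Most G2/M-high promoters held the CHR letters. Of the 66 genes 54 had a promoter in the table, and 31 of these (57.4%) held a CHR match, against 4 of 42 S-high genes (9.52%), 16% of the 3828 tested genes with a promoter and 21.7% of all 27025 genes in the table. Within 100 bases before the start site or after it, the share was 50% of G2/M-high genes, 2.38% of S-high genes and 6.19% of tested genes. CCAAT was found in 83.3% of G2/M-high, 52.4% of S-high and 42.7% of tested genes, and CHR together with CCAAT in 51.9%, 9.52% and 8.05%. The E2F letters were found in 14 of 42 S-high genes (33.3%), 3 of 54 G2/M-high genes (5.56%), 5.41% of tested genes and 2.61% of all genes in the table.

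The following 30-base windows are from RefSeq on GRCm38.p6 and printed 5′ to 3′ in the direction of the gene. They show the CHR letters in capitals for Dbf4 and some strongly G2/M-high genes that had a match. Where a gene had more than 1 match, the one nearest to a start site is in capitals.
Fam83d: gggctggtttgaTTCAAAgatgcctataaa
Aspm: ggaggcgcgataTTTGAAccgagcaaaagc
Plk1: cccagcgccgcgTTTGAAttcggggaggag
Prr11: caaagatttaatTTTGAAattttctttatg
Cdc25b: ccgctgttatttTTCGAAtatataaggagg
Prc1: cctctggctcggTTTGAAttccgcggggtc
Racgap1: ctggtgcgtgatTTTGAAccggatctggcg
Spc25: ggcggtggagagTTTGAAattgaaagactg
Dbf4: gcgtgacgcgttTTCAAAtctttaaccgcc
The windows lie at Fam83d (chr2:158768037-158768066, plus strand), Aspm (chr1:139454767-139454796, plus strand), Plk1 (chr7:122159453-122159482, plus strand), Prr11 (chr11:87108694-87108723, minus strand), Cdc25b (chr2:131186943-131186972, plus strand), Prc1 (chr7:80294434-80294463, plus strand), Racgap1 (chr15:99651634-99651663, minus strand), Spc25 (chr2:69206172-69206201, minus strand) and Dbf4 (chr5:8422702-8422731, minus strand). Counted from 0 at the first transcribed base, the CHR of Fam83d began at -50, that of Prc1 at -5, that of Dbf4 at -3, that of Aspm at 6 and that of Plk1 at 30. Fam83d and Dbf4 carry the letters on the opposite strand, and those of Cdc25b read the same on both. Dbf4, the origin-firing gene on the G2/M side, had a CHR match next to its start site and no E2F match. Only 5.41% of tested genes held the E2F letters, and a link between these letters and the Dbf4 ratio was not tested.

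For S-high genes the capitals mark the E2F letters, shown for genes of licensing, the fork and the G1/S switch.
Cdt1: gggaactaccttTTTGGCGCcatggcgcaa
Mcm3: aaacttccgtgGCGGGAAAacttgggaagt
Rfc3: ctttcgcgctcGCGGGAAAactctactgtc
Pclaf: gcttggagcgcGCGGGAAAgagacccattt
Atad5: cgctccggacgGCGGGAAAacccaattgac
Cdc25a: ggtgaattccgTTTGGCGCcaactaggaaa
These windows lie at Cdt1 (chr8:122568035-122568064, plus strand), Mcm3 (chr1:20820275-20820304, minus strand), Rfc3 (chr5:151651190-151651219, minus strand), Pclaf (chr9:65890307-65890336, plus strand), Atad5 (chr11:80089411-80089440, plus strand) and Cdc25a (chr9:109875501-109875530, plus strand). The match began at 32 in Cdt1, 19 in Mcm3, 0 in Rfc3, -5 in Pclaf and -67 in Cdc25a. Mcm3, Rfc3, Pclaf and Atad5 carry the letters on the opposite strand. The G2/M-high genes Ccnb1, Arl6ip1, Tuba1c, Hmx2, Fzr1, Cdkn2d and Nde1 held CCAAT but no CHR letters in the window. No CHR, CCAAT or E2F match was found for the G2/M-high genes Sapcd2, Reep4, Knstrn, H2afx, Ccna2, Rad21 and Foxm1. The same held for Ccne1 and E2f1, among the most S-high genes. A gene whose promoter was not searched would also give no match.

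**Figure D5:**
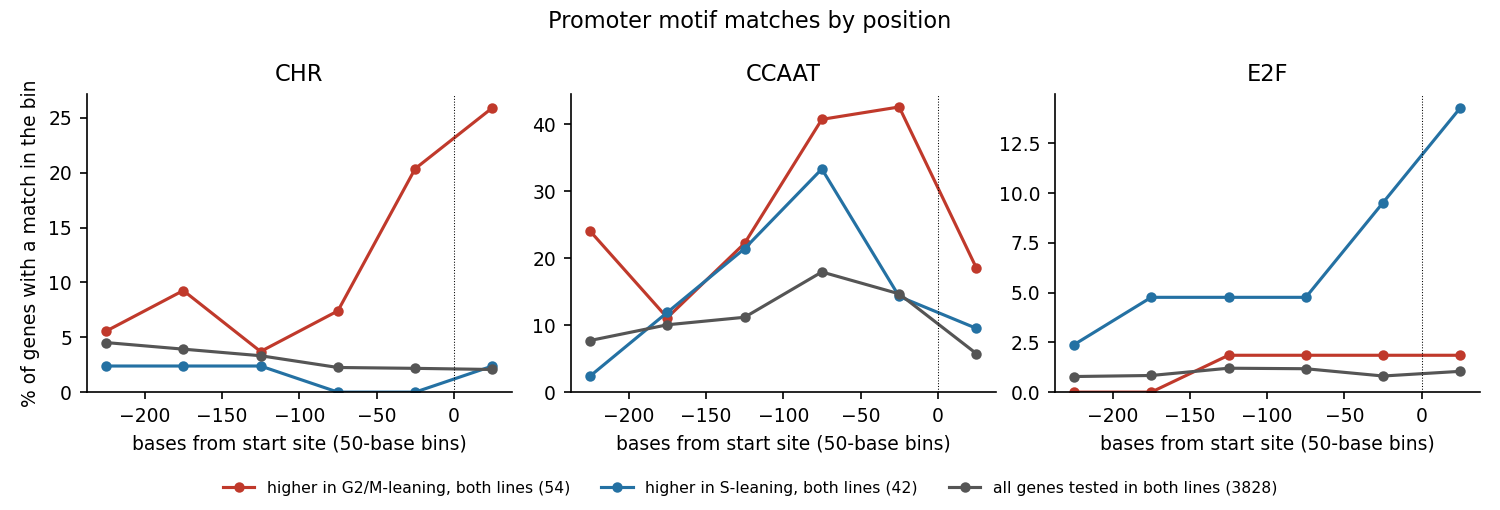
Share of genes with a CHR, CCAAT or E2F match in each 50-base bin around the start site (0 on the horizontal axis), for 54 genes G2/M-high in both lines (red), 42 S-high in both (blue) and 3828 tested genes (grey). CHR matches of G2/M-high genes gather from 50 bases before to 50 after the start site, at 20.4% and 25.9% of genes against 2.17% and 2.06% of tested genes, and E2F matches of S-high genes reach 14.3% in the last bin.

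Other deposited columns were read across the same classes. The Kdm5b high class, drawn on a demethylase linked to slow cycling in melanoma, held 14 of 631 G2/M-leaning and 6 of 780 S-leaning cells of B16F0 and 36 of 578 and 8 of 652 of B16F10. Among non-cycling cells the share was 7.77% and 22.4%. Kdm5b itself stood at 6.39 CPM in the G2/M-leaning and 2.57 CPM in the S-leaning cells of B16F0, and at 12.1 and 6.55 CPM in those of B16F10, below the 20 CPM set for calls. The deposited MITF score had medians of -0.046 in G2/M-leaning, 0.002 in S-leaning and 0.155 in non-cycling cells of B16F0 and of -0.219, -0.164 and -0.021 in B16F10, with standard deviations over cells from 0.24 to 0.32. The medians of both cycling classes were below that of non-cycling cells in each line, and the distance between the cycling classes was smaller than the spread over cells.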

How the data were processed

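Single cells of cultured B16F0 and B16F10 were measured with the 10x Genomics 3' assay (version 2 chemistry) per the labels' protocols, with 1 library per line. The submitters' processing notes name Cell Ranger 3.0.0, Seurat 3.0 and the mm10 build. No source used here states the cell filters, the scored genes or the treatment of doublets and multi-mapped reads, and no doublet caller was run. The authors deposited raw UMI counts for 14959 genes in 4156 cells, and the log table they deposited matched the natural log of 1 plus counts per 10000 (largest difference 6.22e-15 over 1496 genes). The S, G2/M and MITF scores and the classes are the authors' deposited columns. Of the deposited tables, 2 were byte-identical copies and were not used.

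Counts were summed over the cells of a class and line and divided by the class total, which was 23950036 and 29128373 UMIs in G2/M-leaning and S-leaning cells of B16F0 and 22079717 and 23506183 in those of B16F10. A count of 3, the floor used, is 0.103 to 0.136 CPM. Ratios carry exact conditional binomial 95% intervals and levels exact Poisson intervals. Intervals on differences between the lines are a normal approximation on the log scale from the summed counts. All of these intervals cover counting error only. A gene was called when its higher class had at least 20 CPM and the classes differed 1.5-fold, and gene lists used 10 CPM. For shares of cells with a UMI, UMIs were drawn without replacement down to 19224 per cell (10th percentile of the cycling cells, the lower value of the 2 lines), which left out 63, 78 and 97 G2/M-leaning, S-leaning and non-cycling cells of B16F0 and 19, 21 and 25 of B16F10.

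The cells, gene lists and rules were chosen with earlier results of these data known. Named genes were the top 15 and bottom 15 by mean ratio among those called in both lines at 50 CPM or more. To these came the 8 at each end by difference between the lines and the 3 with the largest ratio of each list. Cell cycle genes and a few others, such as Mitf, Pmel and Kdm5b, were fixed by name. Predicted, ribosomal protein and mitochondrial genes were left out, and genes named after their values were seen are said to be so. The values of 2 genes are not reported here. The calculation of ratios and calls was tested on simulated counts, which covers counting error only. Gene positions are from GENCODE M21 on GRCm38 and promoters from RefSeq on GRCm38.p6. The software was R 4.3.3 with edgeR 4.0.16 for the alternative scaling, and Python 3.11.15 with pandas 2.3.3, scipy 1.17.1, numpy 2.4.6 and matplotlib 3.10.9. The alternatives changed the scaling, the weight and depth of cells, the cells kept, the division between classes, the minimum level and the fold.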

Additional observations from a re-analysis of the deposited data

Results flagged for a closer look

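The phase ratios of 3 named genes had opposite signs in the 2 lines with counting intervals that left out 0 on both sides. The difference (B16F10 minus B16F0, log2) was -0.59 for Stmn1, from 0.53 to -0.06, and -0.58 for Lmna, from 0.49 to -0.09. For Mitf it was -0.19, from 0.11 to -0.08. With 1 library per line these differences were not tested, and all 3 genes were within 1.5-fold in each line. Over the alternatives the B16F10 ratio of Stmn1 ranged from -0.10 to -0.04, that of Lmna from -0.10 to 0.04 and the B16F0 ratio of Mitf from -0.02 to 0.12, so the opposite signs of Lmna and Mitf did not hold in every alternative.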

How the results depend on the processing

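No paired analysis was possible because each line is 1 library and the results come from no test. No result turned its direction among called values. With no CPM minimum, 1481 genes were G2/M-high and 1709 S-high in B16F0 and 1488 and 1486 in B16F10, 568 and 587 were so in both lines, and the correlation between the lines fell to 0.304, with genes of few counts included. At a minimum of 50 CPM the counts were 43 and 40, 37 and 23, and 26 and 18 in both lines. At 2-fold they were 50 and 16, 46 and 10, and 38 and 8. Keeping only cells with a single score above 0 gave 178 and 189 genes in B16F0, 148 and 135 in B16F10 and 90 S-high in both. The other scalings, weights, depths and sets of cells kept every count within 1.5 times, with 66 and 39 of the 66 and 46 genes shared under TMM scaling. Counting each ratio of a named gene once per alternative, 1513 values lay within the counting interval of the reported ratio and 375 outside it. The line difference of Cdkn3 ranged from -2.42 to -1.98 and that of Ccne1 from 0.94 to 1.64. Counting error is larger for genes of few counts, and genes under the chosen minimum of 20 CPM were not called. The absence of a second library limits every comparison between the lines.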
